A study of Homo sapiens with 12 samples.

Results

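The genes of iron transport and storage studied here are TF, TFRC, TFR2, SLC11A2, SLC40A1, FTH1, FTL and IREB2. They were chosen by symbol from the deposited count table, where the 8 of them stand among 26364 genes, and all 8 had enough counts to be tested. Transcripts were measured by RNA-seq in HepG2 cells, an established line from a human liver cancer, with 2 replicates of each insulin exposure: 0, 5, 10, 30 and 240 min. Places bound by the insulin receptor (IR) were listed from 1 ChIP-seq library of the same cell line, which was deposited with 1 input library. Per the labels, the RNA-seq cells grew in EMEM medium with 10% fetal bovine serum and then stayed in EMEM for 16 h. They were stimulated with 3 nM insulin in EMEM with bovine serum albumin. For the ChIP-seq cells the labels give 10% fetal bovine serum and 3 nM insulin, with no EMEM time or stimulation time recorded here. The treatment text is the same for the 10 RNA-seq libraries, those of 0 min included, and names a stimulation of 5 min, so the times used here are those of the sample titles. The labels do not say whether replicates were separate cultures, so p-values measure only the spread between these libraries, which may be technical.

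Iron travels in plasma bound to transferrin (TF) and enters cells when the transferrin receptor (TFRC) takes the complex into endosomes, from which the transporter DMT1 (SLC11A2) releases the metal to the cytosol. Ferritin, a shell of heavy (FTH1) and light (FTL) chains, stores iron, and ferroportin (SLC40A1) exports it. The iron regulatory proteins, one of them IRP2 (IREB2), bind RNA hairpins called iron responsive elements (IREs) when iron is scarce, which blocks translation of transcripts that carry the hairpin in the 5′ UTR and protects the TFRC transcript, which carries it in the 3′ UTR. Hepatocytes make the plasma transferrin of the body, and TFR2, the second transferrin receptor, is largely a liver protein that takes part in iron sensing.

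The hairpins are shown first because they lie in the 3′ UTR of TFRC and in the 5′ UTR of SLC40A1, FTH1 and FTL. The search was for a C, 5 bases, the loop CAGTGN and 5 bases that can pair with the first 5, with G-T pairs allowed, on the transcript strand of 1 canonical transcript per gene. Such a match lay in a UTR of 139 of 19540 transcripts (0.711%), and in a UTR of 5 of the 8 iron genes, 4 of them with matches within the gene bodies of the count table. In the 30-base windows printed here, capitals mark the unpaired C and the 6-base loop, and positions are on GRCh37 (hg19). TFRC held 4 matches in its 3′ UTR, all read on the minus strand of chromosome 3:
TFRC 3′ UTR, chr3:195777849-195777878: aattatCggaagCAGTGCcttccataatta
TFRC 3′ UTR, chr3:195777445-195777474: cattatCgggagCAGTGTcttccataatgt
TFRC 3′ UTR, chr3:195777380-195777409: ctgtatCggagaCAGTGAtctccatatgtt
TFRC 3′ UTR, chr3:195777333-195777362: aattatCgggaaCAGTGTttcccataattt

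The exporter and both ferritin chains held 1 match each in the 5′ UTR, on the minus strand for SLC40A1 and FTH1 and on the plus strand for FTL:
SLC40A1 5′ UTR, chr2:190445386-190445415: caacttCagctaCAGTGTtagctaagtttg
FTH1 5′ UTR, chr11:61735045-61735074: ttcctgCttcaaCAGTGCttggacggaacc
FTL 5′ UTR, chr19:49468592-49468621: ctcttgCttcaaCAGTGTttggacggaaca

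In these windows FTH1 and FTL, the ferritin chains, have the same 5 stem bases on each side of the loop. No match was found in the searched transcripts of TFR2, SLC11A2 and IREB2, and the 1 match of TF fell in an annotated 3′ UTR beyond the gene body of the count table. The search needed 5 unbroken pairs in 1 transcript per gene. It would miss an element with a bulge in that stem or in another transcript, so no match does not mean no IRE. A match describes letters only, and the RNA-seq does not measure binding or translation.

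Libraries held 18347109 to 45005769 counts on genes, and the replicate pairs differed beyond counting noise (chi-square per degree of freedom 2.75 to 6.13). The hepatocyte markers ALB, AFP, APOA1, SERPINA1, TTR and HNF4A were all measured, with a summed level of 27942 to 37700 CPM, the count scaled to library size. Markers of other liver cells had lower sums. Macrophage markers summed to 36.3 to 45.4 CPM, most of it CD68 (758 to 1782 counts a library), with PTPRC at 0 in every library. Endothelial markers summed to 5.37 to 6.94 CPM. Stellate cell and fibroblast markers summed to 43.3 to 67.5 CPM, most of it ACTA2, with DCN at 0 to 1 counts. Of the 12 markers with enough counts, 2 changed at 240 min, beside 41.0% of all genes against 0 min and 38.2% against 30 min. ACTA2 fell by 0.30 on the log2 scale against 0 min (adjusted p = 0.00215, edgeR) and by 0.47 against 30 min. HNF4A rose by 0.30 (adjusted p = 0.000101, edgeR) and 0.36. The part of these 2 genes in the results was not tested. All fold changes are relative to the other genes, since normalization by the added ERCC spike-in RNAs shifted the median gene by -0.08 at 5 min, -0.33 at 10 min, -0.13 at 30 min and -0.12 at 240 min on the log2 scale. These shifts were unequal between replicates: genes against spike-ins stood at -0.12 and -0.56 relative to the mean of 0 min in the replicates of 10 min. For 30 min these values were -0.06 and -0.20, for 240 min -0.03 and -0.21. In bulk RNA, fewer cells of a kind and less RNA per cell cannot be told apart.

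On the length-scaled scale of the deposited TPM values, which allows genes to be compared, the light ferritin chain FTL had the highest level of the 8. FTL measured 4831 ± 399 TPM (SD, n = 10 libraries), followed by TF at 3122 ± 270 TPM and FTH1 at 1182 ± 32.3 TPM. TFRC came next, at 228 ± 12.6 TPM. The ranges over libraries of these 4 genes did not meet each other or those below, so the order held in each library. SLC40A1 (66.3 ± 5.43 TPM), TFR2 (65.2 ± 6.01 TPM), IREB2 (64.2 ± 2.50 TPM) and SLC11A2 (57.5 ± 3.91 TPM) overlapped in range. Within libraries, SLC11A2 was below both IREB2 and SLC40A1 in 10 of 10 and below TFR2 in 9 of 10. FTL and TF both lay at percentile 99.9 of the genes tested, and SLC11A2, the lowest of the 8, at percentile 77.

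**Figure D1:**
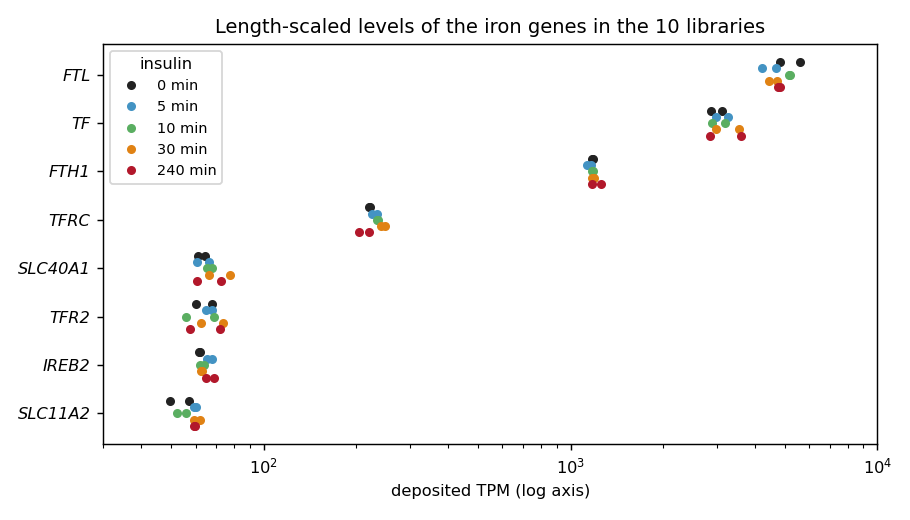
Deposited TPM (log axis) of the 8 iron genes, with 1 point for each of the 10 libraries and colors for the times of insulin. FTL, TF, FTH1 and TFRC occupy separate ranges, while SLC40A1, TFR2, IREB2 and SLC11A2 share the range of 49.5 to 77.6 TPM.

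Over the time course, TFRC and FTL were the 2 of the 8 genes whose levels differed among times, with adjusted p = 0.0112 for TFRC and 0.0115 for FTL (edgeR's quasi-likelihood F-test of the 5 times, Benjamini-Hochberg adjusted over all genes tested). By the same test 38.3% of all genes differed over the 5 times, so 2 of 8 is no more than the background. TF, TFR2, SLC11A2, SLC40A1, FTH1 and IREB2 did not pass, with adjusted p from 0.19 to 0.881. Without the first replicate of 240 min only FTL passed.

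**Figure D2:**
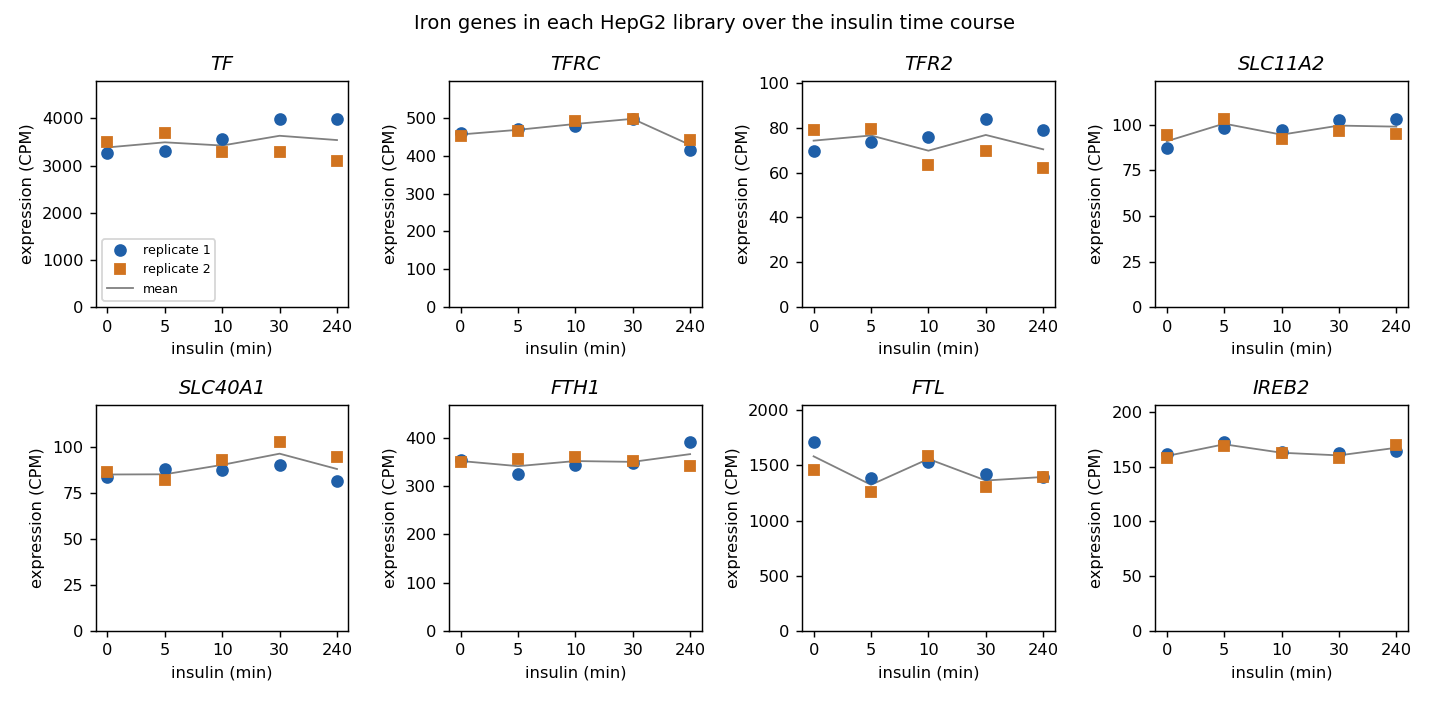
Level in CPM of each of the 8 genes in every library against the time of insulin in min, with the times evenly spaced, circles for replicate 1, squares for replicate 2 and a line through the means. TFRC stands highest at 30 min and lowest at 240 min, and FTL replicate 1 at 0 min stands above all other FTL libraries.

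TFRC, the receptor by which most cells take up transferrin iron, was highest at 30 min and lowest at 240 min. The gene lies at chr3:195776155-195809032 (minus strand, hg19, as are all gene positions here). Its level was 461 and 452 CPM in the replicates at 0 min, 472 and 465 CPM at 5 min, 478 and 491 CPM at 10 min, 497 and 498 CPM at 30 min, and 415 and 443 CPM at 240 min. Every library of 5, 10 and 30 min was above both libraries of 0 min, and both libraries of 240 min were below all the others. At 240 min 69.7% of all genes had libraries apart from those of 0 min, and the share at earlier times was not counted. From 30 min to 240 min TFRC fell from 498 ± 0.494 CPM to 429 ± 19.8 CPM (SD, n = 2), a log2 fold change of -0.22 (SE 0.0483, 95% interval -0.32 to -0.11, adjusted p = 0.00148 by edgeR's quasi-likelihood test, Benjamini-Hochberg adjusted). Between these times 38.2% of all genes changed, 18.4% downward, and TFRC was the 1 of the 8 iron genes to do so. The call stood in each of the 10 fits that left out 1 library, with log2 fold changes of -0.26 to -0.17, and was lost with spike-in scaling (log2 fold change -0.21, adjusted p = 0.674).

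Against 0 min, the TFRC values did not pass the test at any time. The log2 fold change was 0.04 at 5 min, 0.09 at 10 min and 0.13 at 30 min, where the adjusted p was 0.492. At 240 min it was -0.09 (SE 0.0482, 95% interval -0.19 to 0.01, adjusted p = 0.146, edgeR's quasi-likelihood test), -0.05 without the first replicate of 240 min, -0.14 without the second, and -0.21 with spike-in scaling, none past the test. The comparisons with 0 min share the 0 min libraries, and both comparisons of 240 min share the 240 min libraries.

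FTL, the light chain of ferritin, was lower at 5, 30 and 240 min than at 0 min, and only the difference at 240 min passed the test. The gene lies at chr19:49468566-49470136 on the plus strand. The replicates measured 1708 and 1456 CPM at 0 min, 1390 and 1258 CPM at 5 min, 1534 and 1582 CPM at 10 min, 1425 and 1300 CPM at 30 min, and 1393 and 1396 CPM at 240 min. The first replicate of 0 min was the highest library, the libraries of 10 min lay between the replicates of 0 min, and those of 5, 30 and 240 min were all below both. Libraries apart from those of 0 min were found for 69.7% of all genes at 240 min and were not counted over all genes at 5 and 30 min. At 240 min FTL fell from 1582 ± 178 CPM to 1395 ± 1.90 CPM (SD, n = 2), a log2 fold change of -0.18 (SE 0.0684, 95% interval -0.32 to -0.04, adjusted p = 0.0404 by edgeR's quasi-likelihood test, Benjamini-Hochberg adjusted). At this time 41.0% of all genes changed, 20.6% upward and 20.4% downward, and FTL was the 1 of the 8 iron genes called. With spike-in scaling 331 genes rose and 728 fell at 240 min, in place of 2847 and 2829.

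The size of the FTL fall depended on which replicate of 0 min was kept, with a log2 fold change of -0.06 and an adjusted p of 0.53 (edgeR) without the first and a log2 fold change of -0.29 without the second. Its value stayed at -0.18 but missed the threshold without the first or second replicate of 10 min (adjusted p = 0.0547 and 0.0513) and of 240 min (0.106 and 0.0908, edgeR). DESeq2 gave an adjusted p of 0.122 for FTL at 240 min, and edgeR with spike-in scaling gave a larger fall with no call (log2 fold change -0.30, adjusted p = 0.386). Of the 13 analyses of the full set of libraries, 6 called FTL. The direction was down in all 13, which use the same libraries, so their shared sign is no separate evidence. The values at the early times, which did not pass the test, were larger in size: -0.26 at 5 min (95% interval -0.40 to -0.11) with an unadjusted p of 0.00138 and an adjusted p of 0.243, and -0.21 at 30 min with an adjusted p of 0.362. At 10 min it was -0.02, and from 30 to 240 min it was 0.03, both edgeR values.

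**Figure D3:**
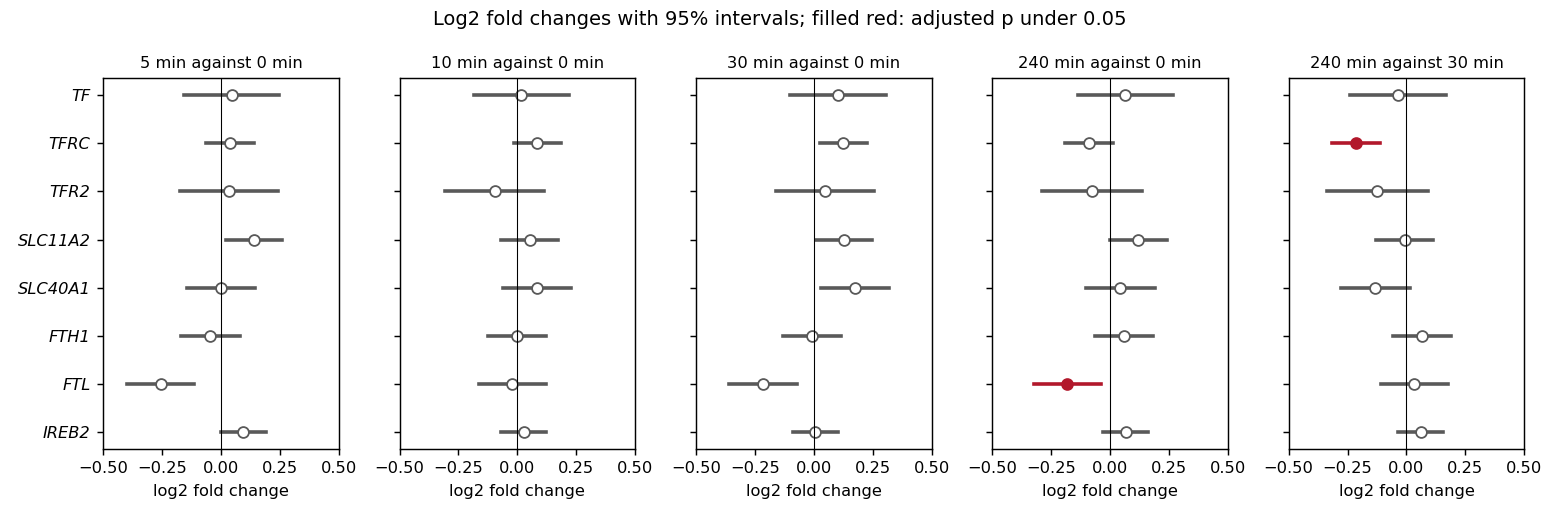
Log2 fold change of the 8 genes in 5 comparisons of times, with points for the estimates and bars for 95% intervals. The filled points are FTL at 240 min against 0 min (-0.18) and TFRC at 240 min against 30 min (-0.22), the values with an adjusted p under the threshold.

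FTH1 (chr11:61731757-61735132, minus strand), the heavy chain that carries the ferroxidase activity of ferritin, stayed between 326 and 391 CPM in the 10 libraries. Its log2 fold change at 240 min against 0 min was 0.06 (95% interval -0.07 to 0.18), from 352 ± 3.06 CPM to 367 ± 34.4 CPM (SD, n = 2) and did not pass the test. The 2 replicates of 240 min stood on either side of those of 0 min. The log2 ratio of FTH1 to FTL counts within a library was lowest in the first replicate of 0 min, at -2.27, and highest in the second replicate of 5 min, at -1.82. Over the 10 libraries the Pearson correlation of log2 levels of the ferritin chains was -0.00137, a description of libraries that share times and scaling. Of the processed ferritin copies in the count table, FTH1P3 held 20 to 58 counts a library and FTLP10, FTHL17 and FTH1P18 none. How reads that match several copies were counted was not tested.

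TF (chr3:133464977-133497850, plus strand), which encodes the plasma iron carrier made by hepatocytes, ranged from 3088 to 3993 CPM, with both extremes in the replicates of 240 min. Its means were 3385 ± 175 CPM at 0 min and 3540 ± 640 CPM at 240 min (SD, n = 2), a log2 fold change of 0.06 (95% interval -0.14 to 0.27). Which replicate of 240 min was kept set the sign: 0.24 without the second and -0.13 without the first.

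TFR2 (chr7:100218039-100239173, minus strand), the receptor involved in hepatic iron sensing, ranged from 61.9 to 84.0 CPM and was split between replicates in the same libraries as TF. Both genes were higher in the first replicate at 10, 30 and 240 min and higher in the second at 0 and 5 min, and their log2 levels had a Pearson correlation of 0.866 over the 10 libraries. The log2 fold change of TFR2 at 240 min was -0.08 (95% interval -0.29 to 0.13).

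SLC11A2 (chr12:51373566-51422058, minus strand), the DMT1 transporter, measured 87.4 and 94.7 CPM at 0 min and 103 and 95.1 CPM at 240 min. Its libraries of 5, 30 and 240 min were all above both of 0 min, with log2 fold changes of 0.14, 0.13 and 0.12 and adjusted p of 0.3, 0.569 and 0.106 (edgeR), none past the test. Such a gap from 0 min held for 69.7% of all genes at 240 min and was not counted over all genes at 5 and 30 min. SLC40A1 (chr2:190425316-190445537, minus strand), the exporter ferroportin, ranged from 81.3 to 103 CPM. It was highest in the second replicate of 30 min, where the log2 fold change against 0 min was 0.18 (95% interval 0.03 to 0.32, adjusted p = 0.502 by edgeR). IREB2 (chr15:78730518-78793798, plus strand), the iron regulatory protein IRP2, had the narrowest range, from 158 to 172 CPM. Its replicates of 240 min, 164 and 170 CPM, were above those of 0 min, 161 and 158 CPM, by a log2 fold change of 0.07 that did not pass the test (adjusted p = 0.263 by edgeR).

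None of the 8 genes passed at the early times. At 5 min 0 of 8 passed edgeR's test, beside 0% of all genes. FTL and SLC11A2 had an unadjusted p under 0.05, beside 1976 of the 13852 genes tested. At 10 min 0 of 8 passed, beside 0.137% of all genes, with none under that unadjusted value, beside 710 of all genes tested. At 30 min 0 of 8 passed, beside 0.332% of all genes. TFRC, SLC11A2, SLC40A1 and FTL were under the unadjusted value, beside 1125 of all genes tested. DESeq2 and limma called none of the 8 at these times either. Of all genes DESeq2 called 2, 26 and 53 at 5, 10 and 30 min, and limma 0 to 3. Without a filter on low counts edgeR called FTL at 5 and at 30 min, beside 144 and 160 of 20553 genes. At 240 min against 0 min the libraries did not overlap for 4 of the 8 genes (TFRC and FTL lower, SLC11A2 and IREB2 higher), beside 69.7% of all genes, and the median log2 fold change was 0.05, beside -0.00257 for all genes tested. At 240 min against 30 min they did not overlap for TFRC and IREB2, beside 65.9% of all genes.

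The genes whose levels over the 10 libraries were most like those of FTL were MRPS18B (Pearson r = 0.964) and NCAPH2 (0.954). For TFRC they were ARFIP1 (0.943) and TMEM230 (0.935). These were the highest values among 10387 genes that averaged 5 CPM or more, over libraries that share times, depth and scaling.

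Of 40 other genes of iron, heme and iron-sulfur cluster biology, 35 were tested and 16 changed at 240 min against 0 min, 9 up and 7 down, beside the 41.0% of all genes. Their median log2 fold change was -0.0048. None of the 35 passed edgeR's test at 5, 10 or 30 min. Under an unadjusted p of 0.05 were 1, 1 and 2 of them, beside 1976, 710 and 1125 of the 13852 genes tested. With spike-in scaling the calls at 240 min were 2 of the 35, HMOX1 up and SLC39A14 down, beside 1059 of the 13852 genes tested. FECH, SMAD4 and NCOA4 lost their calls with their signs kept, at log2 fold changes of 0.37 for FECH, -0.51 for SMAD4 and -0.40 for NCOA4.

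**Figure D4:**
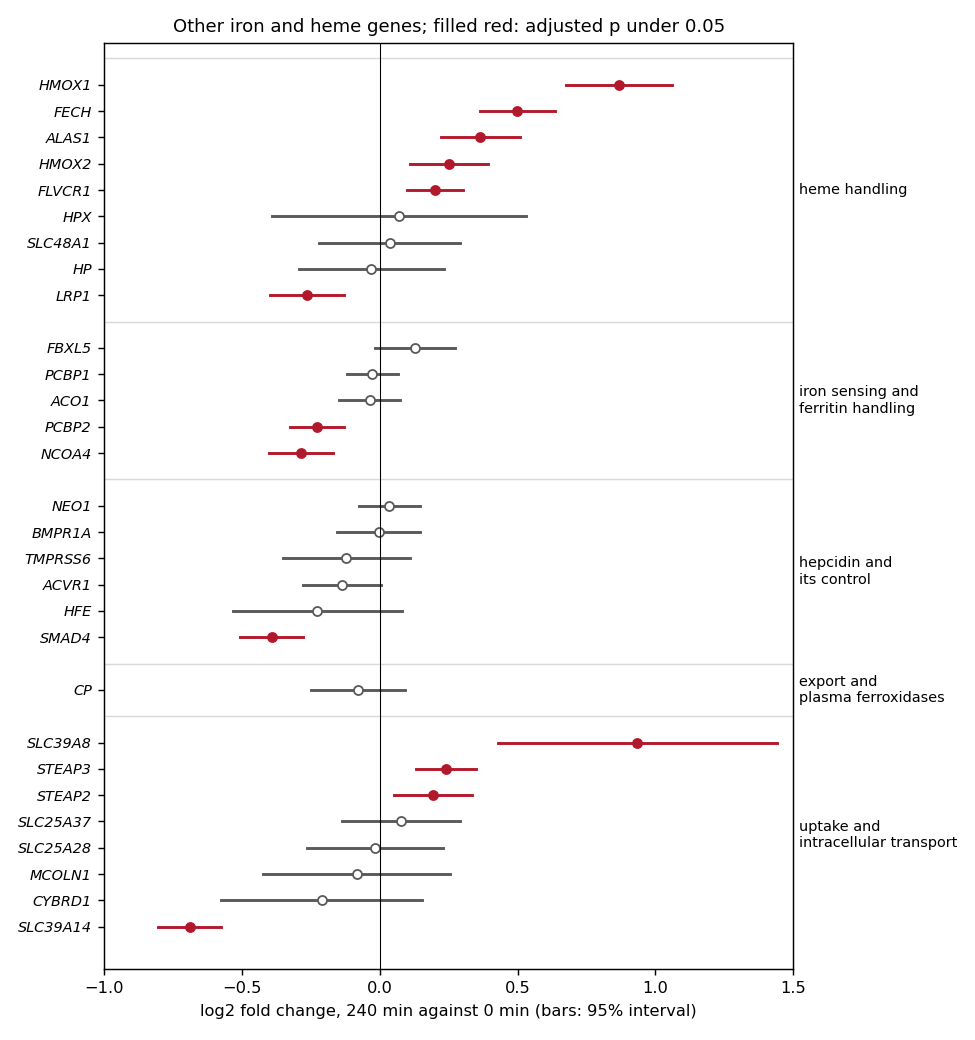
Log2 fold change at 240 min against 0 min of the other genes of iron and heme biology in 5 groups, ordered within each, with bars for 95% intervals and red for an adjusted p under the threshold. HMOX1 (0.87) lies highest among the heme genes and SLC39A14 (-0.69) lowest of those shown. Both were also called with spike-in scaling, beside 1059 of the 13852 genes tested.

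Heme genes, the largest group tested, had the most calls, with 5 up and 1 down of 9, beside 41.0% of all genes. HMOX1, the inducible heme oxygenase that frees iron from heme, measured 13.6 and 13.5 CPM at 0 min and 24.0 and 25.5 CPM at 240 min. It rose by a log2 fold change of 0.87 (SE 0.0914, adjusted p = 4.57e-07 by edgeR's quasi-likelihood test), and its libraries of 5, 10 and 30 min lay between 11.6 and 14.7 CPM. FECH, which inserts iron into the porphyrin ring, rose by 0.50 on the log2 scale (32.5 and 28.9 to 42.6 and 43.6 CPM). ALAS1, the rate-limiting enzyme of hepatic heme synthesis, rose by 0.36 and HMOX2, the constitutive heme oxygenase, by 0.25. LRP1, an endocytic receptor that takes up heme bound to hemopexin among many ligands, fell by 0.27 on the log2 scale.

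Among genes of iron uptake and intracellular transport, 3 rose and 1 fell of 8 tested, beside the 41.0% of all genes that changed. SLC39A14 (ZIP14), which carries non-transferrin-bound iron, zinc and manganese into hepatocytes, measured 1031 and 1010 CPM at 0 min and 641 and 623 CPM at 240 min. It fell by 0.69 on the log2 scale (SE 0.055, adjusted p = 1.46e-08 by edgeR's quasi-likelihood test), the largest fall of the 35, and its libraries of 5, 10 and 30 min lay between 846 and 985 CPM. STEAP3, the endosomal ferrireductase that works beside TFRC and SLC11A2, rose by 0.24.

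Of the genes that sense iron or handle ferritin, 2 fell of 5 tested, beside the 41.0% of all genes that changed. NCOA4, the cargo receptor that delivers ferritin to lysosomes, measured 557 and 568 CPM at 0 min and 485 and 437 CPM at 240 min, and fell by 0.29 on the log2 scale (adjusted p = 0.000382 by edgeR). PCBP2, an iron chaperone that also binds RNA, fell by 0.23. ACO1, the other iron regulatory protein, had a log2 fold change of -0.04 (adjusted p = 0.609), and FBXL5, which targets IRP2 for degradation, one of 0.13 (adjusted p = 0.158, both by edgeR), neither past the test. The FBXL5 value was 0.0041 without the first replicate of 240 min and 0.23 without the second.

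In the hepcidin group 1 of 6 tested genes changed, beside 41.0% of all genes. This was SMAD4, the shared signal carrier of the BMP pathway, which fell by 0.39 on the log2 scale. HAMP, which encodes hepcidin, the hormone that removes ferroportin from the membrane, held 0 to 4 counts a library and could not be tested. CP, the ferroxidase ceruloplasmin and the 1 tested gene of the export group, did not pass at 240 min against 0 min (-0.08, adjusted p = 0.461 by edgeR). Against 30 min CP was called lower (-0.22, adjusted p = 0.037 by edgeR), beside 38.2% of all genes changed.

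The IR ChIP-seq list held 1971 peaks, and a peak lay within 5 kb of 2 of the 8 genes, FTL and TFR2, beside 15.6% of the 13703 tested genes with coordinates. The FTL peak, chr19:49468997-49469380 on hg19, was inside the gene. Its score was 117, rank 752 of the list, whose median score was 79. Its center lay 622 bp downstream of the start of FTL, over the end of intron 1, all of exon 2 and the start of intron 2, and it did not reach the IRE match in exon 1. The deposited annotation, by HOMER, calls the position a transcription termination site (TTS). The middle 300 bases of this peak are shown because FTL is both the gene called at 240 min and the one with the stronger of the peaks. Capitals mark the 135 bases of exon 2, a coding exon, and the GC content is 59.3%.
FTL peak, chr19:49469039-49469338, plus strand: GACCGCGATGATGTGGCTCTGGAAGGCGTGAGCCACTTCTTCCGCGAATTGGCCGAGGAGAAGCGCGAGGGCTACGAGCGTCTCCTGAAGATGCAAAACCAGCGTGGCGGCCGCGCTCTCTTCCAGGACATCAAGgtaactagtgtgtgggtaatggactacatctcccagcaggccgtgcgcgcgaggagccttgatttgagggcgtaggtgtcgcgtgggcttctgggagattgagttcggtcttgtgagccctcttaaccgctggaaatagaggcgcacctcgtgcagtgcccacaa

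**Figure D5:**
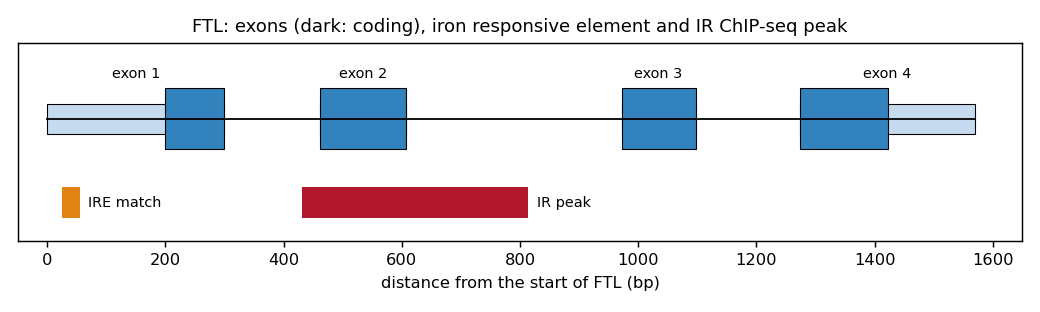
Map of FTL, with distance from its start in bp: exons 1 to 4 (dark where coding), the IRE match and the IR ChIP-seq peak. The IRE match covers 26 to 55 bp and the peak 431 to 814 bp, over exon 2.

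The TFR2 peak, chr7:100239179-100239522, had a score of 29 and rank 1687, was annotated as promoter, and had its center 177 bp upstream of the start of TFR2. With 1 ChIP-seq library, the peaks have no replicate check. No peak lay within 5 kb of TF, TFRC, SLC11A2, SLC40A1, FTH1 or IREB2.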

How the data were processed

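RNA-seq of 10 HepG2 libraries, 2 at each of 5 times of insulin, and the peaks of 1 IR ChIP-seq library were analysed. For the RNA-seq the authors trimmed reads with Trim Galore 0.6.4, aligned them to hg19 with STAR 2.6.1d, counted them per gene on the reverse strand with featureCounts 1.6.4 and deposited raw counts. The authors also deposited TPM from StringTie. For the ChIP-seq the authors aligned reads with BWA 0.7.17-r1188, called peaks with MACS2 2.2.7.1 and deposited each peak with a score and its annotation by HOMER. Versions are those of the submitters' processing notes. The labels' library texts for RNA and ChIP samples look exchanged, and the study's methods were followed.

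The 92 ERCC spike-ins (1.59% to 2.36% of counts) were left out of tests and library sizes. Counts of 13852 genes that passed filterByExpr were TMM-normalized and tested by the quasi-likelihood method of edgeR 4.0.16 (R 4.3.3), all 10 libraries in 1 model without a replicate block, with Benjamini-Hochberg adjustment over all genes tested and a threshold of 0.05. CPM are counts scaled by edgeR to the library size after TMM. On simulated counts of 13736 genes, 96% of genes changed by 0.6 on the log2 scale were recovered. Of the calls 9.26% were false, a share above the threshold of 0.05. The simulation changed 200 genes, by 0.6 or 1.5, so it gives no recovery rate for changes as small as those of FTL and TFRC. IREs were sought in canonical transcripts of GENCODE v44lift37 on GRCh37. Depth was 18347109 to 45005769 counts per library.

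The 8 genes, the list of 40 other genes and the marker lists were chosen with earlier results of these data known. Of the 40, those changed at 240 min with a mean of at least 5 CPM were named, up to the 12 largest, plus ACO1, HAMP, FBXL5 and NCOA4, and CP was named after its value was seen. The iron-sulfur cluster genes of that list are not reported here one by one. For each of the 8 that passed a test, the 2 genes most correlated with it were named. The alternatives were RLE, upper-quartile and spike-in scaling, other filters, DESeq2 1.42.0, edgeR's likelihood ratio test, a replicate block, fits of only the times compared, limma 3.58.1 on log2(TPM + pseudocount) with pseudocounts of 1 and 0.1, and leaving out each library in turn.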

Additional observations from a re-analysis of the deposited data

Results flagged for a closer look

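TFRC changed differently by 240 min than by 30 min of insulin. Its log2 fold change against 0 min was 0.13 at 30 min and -0.09 at 240 min, and the difference of these effects, -0.22, which is the comparison of 240 min with 30 min itself, was past the threshold (adjusted p = 0.00148 by edgeR's quasi-likelihood test). Both libraries of 30 min were above both of 0 min and both libraries of 240 min were below them. Libraries of 240 min were apart from those of 0 min for 69.7% of all genes, and the share at 30 min was not counted. Neither effect against 0 min passed on its own.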

How the results depend on the processing

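Each time had 2 libraries, and TFR2, the lowest of the 8 genes by count, held 61.9 CPM or more in each of the 10. With spike-in scaling 1059 genes changed at 240 min against 0 min, in place of 5676, and 0 of the 8 iron genes were called at 240 min against 0 min, against 30 min or over the 5 times, with log2 fold changes of -0.30 for FTL at 240 min against 0 min and -0.21 for TFRC at 240 min against 30 min. The 8 genes had 0 calls, in place of 1, at 240 min against 0 min with DESeq2, with only the times compared and with each of the 3 limma settings, and 1 call with upper-quartile scaling, SLC11A2 (adjusted p = 0.049) in place of FTL (0.0799). Over the 5 times, DESeq2 called 1 (TFRC) and limma 0, in place of 2, beside 4183 of 13380 genes by DESeq2 and 2989 to 3346 by limma. Without a filter on low counts 1, FTL, was called at 5 min and 1, FTL, at 30 min, beside 144 and 160 of 20553 genes. Of the 40 other genes, 16 at the chosen settings became 2 with spike-in scaling, 10 with limma on log2(TPM + 1), with or without a TPM minimum of 1, and 9 with a pseudocount of 0.1. Of the 2 IR peaks, 1, at FTL, scored above the list's median. The cause of these differences was not tested.

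Leaving out 1 library gave 0 to 1 calls among the 8 genes at 240 min against 0 min, 1 to 2 at 240 min against 30 min, 1 to 2 over the 5 times and 11 to 17 among the other genes. Of the other genes named, LRP1 (adjusted p = 0.0758) and HMOX2 (0.0701) lost their calls without the second replicate of 0 min, and FBXL5 gained one (0.0248) without the second of 240 min, all by edgeR. The call of FTL at 240 min was lost without either replicate of 240 min, either of 10 min or the first of 0 min. TF was called once, without the second replicate of 240 min (0.24, adjusted p = 0.045 by edgeR). At 240 min against 30 min TFRC was called in all 10 such fits, SLC40A1 without the first replicate of 30 min or the second of 240 min, and TFR2 without the first of 240 min.

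Signs turned or sizes moved for values that had not passed. With spike-in scaling the log2 fold change at 240 min against 0 min became -0.042 for TF, -0.075 for SLC40A1, -0.055 for FTH1 and -0.053 for IREB2, and at 240 min against 30 min that of SLC11A2 became 0.0053, and 0.017 with upper-quartile scaling. The limma settings each gave 0.010 for TFR2 at 240 min against 0 min. With 1 library left out, the values at 240 min against 0 min ranged from -0.13 to 0.24 for TF, -0.27 to 0.076 for TFR2, -0.14 to -0.045 for TFRC, 0.056 to 0.18 for SLC11A2, -0.068 to 0.15 for SLC40A1 and -0.044 to 0.15 for FTH1. At 240 min against 30 min they ranged from -0.24 to 0.14 for TF, -0.32 to 0.030 for TFR2, -0.071 to 0.046 for SLC11A2, -0.036 to 0.16 for FTH1 and -0.033 to 0.10 for FTL.

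The labels tie the replicate numbers to no shared culture or day, so the numbers were not taken to pair the libraries. The correlations of the replicate differences between times ran from -0.358 to 0.322. They were above 0.1 for 5 of the 10 pairs of times, the 3 pairs among 10, 30 and 240 min included. These values do not settle whether libraries with the same replicate number share a batch. With the replicate block, 1 of the 8 genes was called at 240 min against 0 min, 1 at 240 min against 30 min and 2 over the 5 times, and 5845 genes in all changed at 240 min against 0 min.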
